A study of Mus musculus with 9 samples.

Results

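The genes described here are 37 genes of the immediate early and heat shock responses, out of 18193 mouse genes that could be named from a probe set with a single gene symbol on these arrays. They were chosen by name, with earlier results of the same arrays known, and above all the differences between lymph node and spleen. Those differences are therefore given as descriptions without a test. Each gene was read from its brightest probe set, judged by the mean of the 9 arrays. All 37 genes were measured, and all 37 had a mean above the level of 5.31 used to filter low values. They comprise 34 immediate early and early response genes and 3 heat shock genes.

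RNA was profiled on 9 microarrays from cells of naive BALB/c animals, 6 to 8 weeks old, that were sorted fresh from the organs. Conventional dendritic cells (CDC, antigen-presenting cells of lymphoid organs), natural killer cells (NK, cytotoxic innate lymphocytes) and interferon-producing killer dendritic cells (IKDC, a population described as sharing features of both) came from spleen, with 2 arrays per cell type, and from lymph node (LN), with 1 array per cell type. All groups share the strain, the age range and the naive state, and no agent or transgene is named in the labels. The labels do not say how many mice were pooled, which surface markers defined the sort or how long the isolation took. Nor do they say what the numbers 1 and 2 of the spleen arrays mark. The p-values below therefore measure only the spread between these arrays. Levels are log2 normalized intensity, on which a difference of 1 is a 2-fold difference, and the level of one gene cannot be compared with that of another. In sorted bulk samples, fewer cells of one type and less RNA per cell cannot be told apart.

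Immediate early genes are switched on within minutes of a signal, without new protein synthesis, mainly by serum response factor, CREB and NF-κB, and their unstable mRNAs disappear again quickly. Many encode transcription factors (the FOS and JUN subunits of AP-1, EGR and NR4A proteins), and others encode brakes on the same signals, such as the phosphatases that switch off MAP kinases. In immune cells they mark recent stimulation, and they are also well known to be induced when tissue is taken apart into single cells. Heat shock genes are driven by a separate factor, HSF1, when unfolded proteins accumulate, and encode chaperones such as HSP70.

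The CDC and NK arrays carried the defining markers of their labels, and the IKDC arrays carried those of NK cells. Zbtb46, a factor of conventional dendritic cells, was at 8.63 to 8.86 in the CDC arrays and at 4.86 to 6.20 in the other arrays, and Ncr1, the NK receptor NKp46, was at 10.97 to 12.18 in the NK and IKDC arrays and at 5.06 to 6.22 in the CDC arrays. Itgax (CD11c) was at 10.88 to 11.24 in the IKDC arrays, and also at 11.32 on spleen NK array 1, against 7.27 on NK array 2. The 8 dendritic cell markers summed to 5090 intensity units on NK array 1 and to 437 on array 2. In the IKDC arrays Zbtb46, at 5.42 to 6.20, was 2 or more log2 units below its CDC level. Other markers differed between organs. In lymph node NK, all 5 tested T cell markers were 2-fold or more above the spleen mean and above both spleen arrays (the 7 measured T cell markers summed to 479 and 711 intensity units in spleen and 2449 in lymph node). In lymph node IKDC this held for 6 of 8 plasmacytoid dendritic cell markers (summed intensity 4638 and 3914 in spleen, 15877 in lymph node) and for all 3 tested B cell markers (136 and 146 against 1146 over the 7 measured). In lymph node CDC it held for 4 of 9 tested macrophage or monocyte markers (13968 and 13581 against 28032 over the 10 measured). No marker list was at 0 on any array. The median intensity was 23.4 to 34.1 on the spleen arrays and 33.9 to 41.3 on the lymph node arrays, and the 3′ to 5′ signal ratio of Gapdh, which rises as RNA is degraded, was 3.28 to 6.15 in spleen and 2.70 to 3.23 in lymph node. The same ratio of actin overlapped, at 1.11 to 3.23 in spleen and 1.39 to 1.89 in lymph node. Xist and the Y-linked Eif2s3y set the 3 spleen arrays numbered 1 (Xist 6.02 to 6.36, Eif2s3y 8.84 to 9.40) apart from the spleen arrays numbered 2 and the lymph node arrays (Xist 11.43 to 12.49, Eif2s3y 2.76 to 4.28). By these genes the arrays numbered 1 read as male and the others as female. The 2 spleen arrays of a cell type therefore came from different mice. The part of these marker, RNA quality and sex differences in the results below was not tested.

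Most of the immediate early genes were lower in lymph node than in spleen, in all 3 cell types. None of the 3 heat shock genes was counted as lower. A gene was counted as lower or higher where the lymph node array was 2-fold or more from the mean of the 2 spleen arrays and outside both of them. By that count 25 of the 37 genes were lower and 3 higher in lymph node CDC, where 7.72% of all 10916 tested genes were lower and 7.15% higher. In lymph node NK, 20 were lower and 1 higher (4.2% and 3.76% of tested genes). In lymph node IKDC, 25 were lower and none higher (4.5% and 4.53%). The median difference over the 37 genes was -1.69 in CDC, -1.10 in NK and -1.42 in IKDC, beside -0.02, -0.05 and 0.01 over all tested genes. The list was drawn up with these differences known, so the distance between the genes and the background is not evidence of its own.

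The same 15 genes were lower in all 3 cell types, beside 0.605% of tested genes. They were Atf3, Fosb, Jun, Junb, Maff, Nr4a1, Nr4a2, Nr4a3, Egr1, Dusp1, Nfkbiz, Zfp36, Ppp1r15a, Csrnp1 and Rhob. A further 12 were lower in just 2 of the cell types (27 genes in at least 2, beside 2.58% of tested genes), and 1, Ier5, in CDC alone. Without the fold requirement, 28 of the 37 had a lymph node array below both spleen arrays in every cell type, beside 1140 of all 10916 tested genes. Set against the spleen arrays numbered 2 alone, which resemble the lymph node arrays in Xist and Eif2s3y, 25 genes were lower in CDC, 22 in NK and 28 in IKDC. Against the spleen arrays numbered 1 alone, the counts were 25, 16 and 19. With 1 spleen array the rule asks only for a 2-fold difference from that array, so these counts cannot be set beside the shares above.

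**Figure D1:**
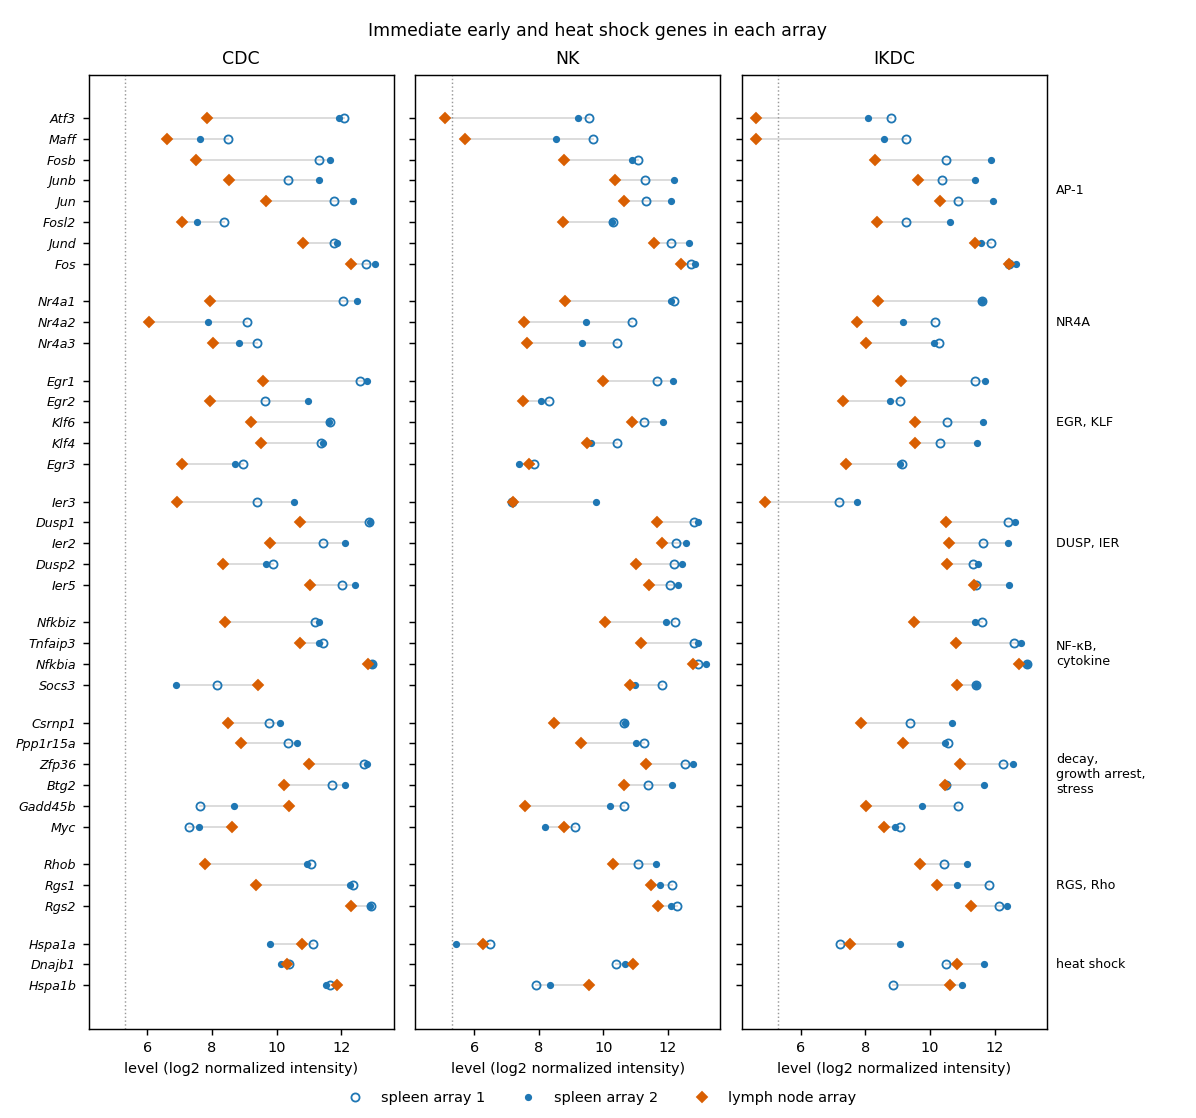
Level of each of the 37 genes (rows, grouped by role) in the CDC, NK and IKDC arrays (panels), as log2 normalized intensity; open circles are spleen array 1, filled circles spleen array 2, diamonds the lone lymph node array, and the dotted line the filter level of 5.31. The diamonds lie to the left of both circles for 31 genes in CDC, 31 in NK and 33 in IKDC, and within or to the right of the circles for the 3 heat shock genes. Of all 10916 tested genes, 4372 in CDC, 4355 in NK and 3283 in IKDC had a lymph node array below both spleen arrays.

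Promoters are shown for the genes that held an element of CREB or serum response factor, and for the HSP70 pair, which held one of HSF1, since these factors are the textbook activators of the 2 responses. RefSeq windows on GRCm38.p6 were at hand for 31 of the 37 genes, and the 250 bases before each start were searched on both strands. The cAMP response element TGACGTCA, to which CREB binds, was found in 3 of the 31 (9.68%, beside 1.62% of 27025 promoters of the same length), namely Dusp1, Btg2 and Ppp1r15a. The CArG box of serum response factor was found in 1, Zfp36 (3.23% beside 1.4%). The heat shock element GAANNTTC was found in 4, Hspa1a, Hspa1b, Jun and Fosl2 (12.9% beside 6.78%). In the lines that follow, each sequence is read 5′ to 3′ towards the start and ends 1 base before it, with the element in capitals. All 6 windows are on the minus strand, Zfp36 at chr7:28379229-28379478, Dusp1 at chr17:26508473-26508722, Btg2 at chr1:134079156-134079405, Ppp1r15a at chr7:45526269-45526518, Hspa1a at chr17:34972157-34972406 and Hspa1b at chr17:34959239-34959488.
Zfp36: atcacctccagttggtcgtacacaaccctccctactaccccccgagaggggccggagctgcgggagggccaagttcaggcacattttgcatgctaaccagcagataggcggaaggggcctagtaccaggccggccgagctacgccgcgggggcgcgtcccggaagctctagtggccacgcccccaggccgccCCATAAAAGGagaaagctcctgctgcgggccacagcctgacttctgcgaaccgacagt
Dusp1: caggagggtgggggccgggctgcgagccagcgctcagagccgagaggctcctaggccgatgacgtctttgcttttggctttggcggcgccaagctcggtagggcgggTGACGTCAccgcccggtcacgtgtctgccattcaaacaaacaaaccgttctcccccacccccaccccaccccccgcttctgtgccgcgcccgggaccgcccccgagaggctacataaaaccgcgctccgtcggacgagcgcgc
Btg2: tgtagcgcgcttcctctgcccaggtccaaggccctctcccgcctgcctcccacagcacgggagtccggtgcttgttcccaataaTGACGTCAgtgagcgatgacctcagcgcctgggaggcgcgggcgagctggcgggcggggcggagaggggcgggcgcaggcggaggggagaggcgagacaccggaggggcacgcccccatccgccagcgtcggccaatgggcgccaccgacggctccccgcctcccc
Ppp1r15a: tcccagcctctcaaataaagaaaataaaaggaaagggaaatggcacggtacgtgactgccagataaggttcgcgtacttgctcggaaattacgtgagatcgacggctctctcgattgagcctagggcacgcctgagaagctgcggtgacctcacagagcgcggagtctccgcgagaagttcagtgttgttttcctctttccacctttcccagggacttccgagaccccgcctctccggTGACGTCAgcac
Hspa1a: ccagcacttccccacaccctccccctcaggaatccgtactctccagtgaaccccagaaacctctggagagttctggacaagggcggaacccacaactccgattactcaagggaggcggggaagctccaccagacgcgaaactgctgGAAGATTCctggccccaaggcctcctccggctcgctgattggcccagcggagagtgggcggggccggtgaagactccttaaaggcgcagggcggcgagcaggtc
Hspa1b: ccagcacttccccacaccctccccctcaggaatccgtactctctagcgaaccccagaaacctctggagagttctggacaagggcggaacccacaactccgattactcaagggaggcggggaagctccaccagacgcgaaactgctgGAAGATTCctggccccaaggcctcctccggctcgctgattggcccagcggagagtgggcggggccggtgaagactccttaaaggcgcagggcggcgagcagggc

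The element ends 49 bases before the start in Zfp36, 136 in Dusp1, 159 in Btg2, 5 in Ppp1r15a and 97 in both Hspa1a and Hspa1b. The windows of the 2 HSP70 genes were the same at 247 of 250 bases, and the probe sets of this near-identical pair may share signal. The NF-κB site was found in 6 genes (19.4%, beside 3.75% of promoters), Fos, Fosb, Fosl2, Ier3, Nfkbia and Tnfaip3. The AP-1 site TGANTCA was found in 1, Tnfaip3 (3.23% beside 6.87%), the EGR site GCGTGGGCG in none (0.54% of promoters), and TATAAA in 4 (12.9% beside 13%). The median GC content of the windows was 64.8% in the 31 genes and 52% in all promoters. A match describes these letters in this window and says nothing of binding.

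Among the AP-1 genes, Atf3, Fosb and Maff were far lower in lymph node and Fos was almost level. Atf3, a stress-induced factor that pairs with JUN proteins, stood at 12.08 and 11.93 in spleen CDC and 7.85 in lymph node CDC, 9.56 and 9.22 in spleen NK and 5.11 in lymph node NK, and 8.80 and 8.07 in spleen IKDC and 4.61 in lymph node IKDC. Its lymph node minus spleen differences were -4.15 in CDC, -4.28 in NK and -3.83 in IKDC, and the lymph node NK and IKDC arrays were below the filter level, so that these differences rest on little signal in lymph node. The lymph node arrays did not overlap the spleen arrays in any cell type, and the difference in NK was the most negative of all 10916 tested genes. Maff, a small MAF protein that lacks an activation domain, stood at 8.50 and 7.64 in spleen CDC and 6.60 in lymph node CDC, 9.66 and 8.54 in spleen NK and 5.73 in lymph node NK, and 9.27 and 8.56 in spleen IKDC and 4.63 in lymph node IKDC. Its differences were -1.47 in CDC, -3.37 in NK and -4.29 in IKDC, the last being the most negative of all tested genes in IKDC, again with a lymph node level below the filter.

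Fosb, a FOS family subunit, stood at 11.32 and 11.66 in spleen CDC and 7.50 in lymph node CDC, 11.06 and 10.87 in spleen NK and 8.78 in lymph node NK, and 10.50 and 11.88 in spleen IKDC and 8.29 in lymph node IKDC. The lymph node array was lower by 15.9-fold in CDC, 4.54-fold in NK and 7.49-fold in IKDC. Every lymph node array lay at least 2 log2 units below both spleen arrays of its cell type. Fos itself, the founding member, stood at 12.78 and 13.03 in spleen CDC and 12.29 in lymph node CDC, 12.72 and 12.84 in spleen NK and 12.42 in lymph node NK, and 12.44 and 12.66 in spleen IKDC and 12.44 in lymph node IKDC. Its levels spanned only 12.29 to 13.03 over the 9 arrays and differed between organs by -0.62 in CDC, -0.36 in NK and -0.11 in IKDC. Fos thus read near its spleen level in every cell type, and its lymph node IKDC array was level with the lower spleen array. It was read from a single probe set, with levels among the highest of the 37 genes. Whether differences are compressed at such levels was not tested.

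Jun, the main partner of FOS proteins, stood at 11.78 and 12.35 in spleen CDC and 9.68 in lymph node CDC, 11.33 and 12.09 in spleen NK and 10.63 in lymph node NK, and 10.86 and 11.95 in spleen IKDC and 10.32 in lymph node IKDC. Junb, which often acts against JUN, stood at 10.37 and 11.31 in spleen CDC and 8.52 in lymph node CDC, 11.28 and 12.17 in spleen NK and 10.36 in lymph node NK, and 10.37 and 11.39 in spleen IKDC and 9.64 in lymph node IKDC. Both were lowest in the lymph node array of each cell type, with differences of -2.38 in CDC, -1.08 in NK and -1.09 in IKDC for Jun and of -2.32 in CDC, -1.37 in NK and -1.24 in IKDC for Junb. The spleen arrays numbered 2 were above those numbered 1 for both genes in every cell type, so the distance from array 2 was the greater. A second Jun probe set, with a mean level of 10.34, gave -1.53 in CDC, -1.46 in NK and -0.66 in IKDC. It was thus not counted as lower in IKDC. Jund, the most constantly expressed JUN protein, stood at 11.76 and 11.87 in spleen CDC and 10.82 in lymph node CDC, 12.09 and 12.64 in spleen NK and 11.57 in lymph node NK, and 11.88 and 11.58 in spleen IKDC and 11.40 in lymph node IKDC. Its differences of -0.998 in CDC, -0.79 in NK and -0.33 in IKDC did not reach the 2-fold rule, although each lymph node array was below both spleen arrays. Fosl2 (FRA-2), a further FOS family subunit, stood at 8.38 and 7.52 in spleen CDC and 7.08 in lymph node CDC, 10.31 and 10.27 in spleen NK and 8.76 in lymph node NK, and 9.25 and 10.62 in spleen IKDC and 8.36 in lymph node IKDC, with differences of -0.87 in CDC, -1.53 in NK and -1.58 in IKDC.

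All 3 NR4A genes, which encode orphan nuclear receptors controlled by their abundance, were lower in every lymph node array. Nr4a1 (NUR77), widely used as a reporter of antigen receptor signalling, stood at 12.06 and 12.47 in spleen CDC and 7.94 in lymph node CDC, 12.20 and 12.10 in spleen NK and 8.81 in lymph node NK, and 11.59 and 11.62 in spleen IKDC and 8.39 in lymph node IKDC. The lymph node array was lower by 19.98-fold in CDC, 10.1-fold in NK and 9.27-fold in IKDC, and the spleen arrays of a cell type lay within 0.41 of each other. Nr4a2 stood at 9.09 and 7.87 in spleen CDC and 6.06 in lymph node CDC, 10.89 and 9.46 in spleen NK and 7.53 in lymph node NK, and 10.14 and 9.15 in spleen IKDC and 7.73 in lymph node IKDC. Nr4a3 stood at 9.39 and 8.83 in spleen CDC and 8.03 in lymph node CDC, 10.43 and 9.35 in spleen NK and 7.65 in lymph node NK, and 10.26 and 10.12 in spleen IKDC and 8.03 in lymph node IKDC. The spleen arrays of these 2 genes spread by up to 1.42, array 1 being the higher in each cell type, and still no lymph node array reached either of them.

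Read from their brightest probe sets, the EGR zinc finger factors and the KLF factors were lower in lymph node CDC and IKDC. In NK they were, Egr1 apart, within 2-fold of spleen. Egr1, an early target of the ERK pathway, stood at 12.58 and 12.81 in spleen CDC and 9.59 in lymph node CDC, 11.65 and 12.15 in spleen NK and 9.9995 in lymph node NK, and 11.38 and 11.69 in spleen IKDC and 9.09 in lymph node IKDC. Its differences were -3.11 in CDC, -1.90 in NK and -2.44 in IKDC. Egr2, a factor of T cell tolerance, stood at 9.65 and 10.97 in spleen CDC and 7.95 in lymph node CDC, 8.33 and 8.07 in spleen NK and 7.51 in lymph node NK, and 9.06 and 8.74 in spleen IKDC and 7.31 in lymph node IKDC. Egr3, its close relative, stood at 8.96 and 8.70 in spleen CDC and 7.07 in lymph node CDC, 7.87 and 7.40 in spleen NK and 7.69 in lymph node NK, and 9.12 and 9.06 in spleen IKDC and 7.40 in lymph node IKDC. For Egr2 the difference was -2.36 in CDC, -0.69 in NK and -1.59 in IKDC, and for Egr3 the lymph node NK array lay between the spleen arrays. The second Egr2 probe set, with a mean level of 8.03, gave -0.30 in CDC, 0.37 in NK and -0.55 in IKDC. It was thus within 2-fold of spleen in every cell type. Klf4, a factor of monocyte differentiation, stood at 11.37 and 11.42 in spleen CDC and 9.53 in lymph node CDC, 10.41 and 9.62 in spleen NK and 9.48 in lymph node NK, and 10.30 and 11.46 in spleen IKDC and 9.54 in lymph node IKDC. Klf6, a widely expressed zinc finger factor, stood at 11.64 and 11.63 in spleen CDC and 9.22 in lymph node CDC, 11.25 and 11.85 in spleen NK and 10.90 in lymph node NK, and 10.52 and 11.63 in spleen IKDC and 9.54 in lymph node IKDC. Both KLF genes were counted as lower in CDC and IKDC, and in NK they differed by -0.53 and -0.65. The other Klf6 probe sets gave -1.83, -0.99, -0.28 and -0.01 in NK. The first of these, with a mean level of 8.08, was thus counted as lower in NK. Whether the NK difference is smaller than that of the other cell types was not tested.

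Of the MAP kinase phosphatases, Dusp1, which inactivates p38 and JNK, stood at 12.84 and 12.90 in spleen CDC and 10.73 in lymph node CDC, 12.81 and 12.92 in spleen NK and 11.67 in lymph node NK, and 12.41 and 12.64 in spleen IKDC and 10.50 in lymph node IKDC. Its differences of -2.14 in CDC, -1.20 in NK and -2.02 in IKDC stand against spleen arrays that lay within 0.23 of each other in each cell type. Dusp2, a nuclear phosphatase of lymphocytes and myeloid cells, stood at 9.87 and 9.68 in spleen CDC and 8.34 in lymph node CDC, 12.18 and 12.44 in spleen NK and 11.01 in lymph node NK, and 11.32 and 11.48 in spleen IKDC and 10.53 in lymph node IKDC. Lymph node was below spleen in each cell type, by 2-fold or more in CDC and NK and with a difference of -0.86 in IKDC. The IER genes, named for their immediate early response, differed most in CDC. Ier2, a nuclear protein, stood at 11.43 and 12.12 in spleen CDC and 9.78 in lymph node CDC, 12.25 and 12.54 in spleen NK and 11.81 in lymph node NK, and 11.62 and 12.41 in spleen IKDC and 10.60 in lymph node IKDC. Ier3, which encodes a regulator of survival, stood at 9.40 and 10.53 in spleen CDC and 6.91 in lymph node CDC, 7.16 and 9.78 in spleen NK and 7.21 in lymph node NK, and 7.19 and 7.74 in spleen IKDC and 4.90 in lymph node IKDC. The spleen NK arrays of Ier3 lay 2.62 apart and enclosed the lymph node array, whereas the lymph node arrays of CDC and IKDC were below both spleen arrays. That of IKDC was also below the filter level of 5.31, so that the size of its difference rests on little signal. Ier5, the last of these genes, stood at 12.04 and 12.42 in spleen CDC and 11.04 in lymph node CDC, 12.07 and 12.32 in spleen NK and 11.41 in lymph node NK, and 11.43 and 12.43 in spleen IKDC and 11.36 in lymph node IKDC, and was counted as lower in CDC alone. A dimmer Ier5 probe set, with a mean level of 5.58, gave -1.80 in CDC, -0.71 in NK and -2.10 in IKDC. The third gave -0.88 in CDC, -0.37 in NK and -0.14 in IKDC.

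By their brightest probe sets, the genes of NF-κB feedback did not move as one. Nfkbia (IκBα), which holds NF-κB in the cytoplasm, stood at 12.96 and 12.94 in spleen CDC and 12.82 in lymph node CDC, 12.94 and 13.19 in spleen NK and 12.76 in lymph node NK, and 12.99 and 12.98 in spleen IKDC and 12.74 in lymph node IKDC. These levels spanned 12.74 to 13.19, with differences of -0.13 in CDC, -0.30 in NK and -0.25 in IKDC. Of its 4 other probe sets, 1 was close to these values, with -0.08 in CDC, -0.37 in NK and -0.68 in IKDC, and 3 were lower in lymph node NK. Those 3 gave 0.31 in CDC, -1.32 in NK and -1.60 in IKDC, then 0.12 in CDC, -1.72 in NK and -1.78 in IKDC, and 0.62 in CDC, -1.90 in NK and -0.95 in IKDC. Nfkbiz (IκBζ), a nuclear cofactor of NF-κB, stood at 11.20 and 11.32 in spleen CDC and 8.40 in lymph node CDC, 12.21 and 11.95 in spleen NK and 10.04 in lymph node NK, and 11.60 and 11.38 in spleen IKDC and 9.51 in lymph node IKDC. Its differences were -2.86 in CDC, -2.04 in NK and -1.98 in IKDC, with no overlap in any cell type. A second Nfkbiz probe set gave -1.65 in CDC, -2.67 in NK and -1.71 in IKDC. The third, with a mean level of 9.02, gave 0.42 in CDC, -0.40 in NK and -0.17 in IKDC and so did not show the lower level. Tnfaip3 (A20), an enzyme that ends NF-κB signalling, stood at 11.42 and 11.31 in spleen CDC and 10.71 in lymph node CDC, 12.81 and 12.93 in spleen NK and 11.18 in lymph node NK, and 12.60 and 12.80 in spleen IKDC and 10.79 in lymph node IKDC. It was more than 2-fold lower in lymph node NK and IKDC, and its difference in CDC was -0.65.

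Socs3, an inhibitor of JAK and STAT signalling that is induced by cytokines, went the other way in CDC. It stood at 8.15 and 6.89 in spleen CDC and 9.44 in lymph node CDC, 11.82 and 10.99 in spleen NK and 10.82 in lymph node NK, and 11.42 and 11.41 in spleen IKDC and 10.83 in lymph node IKDC. The lymph node CDC array was above both spleen arrays, by 1.92 from their mean, and the lymph node NK and IKDC arrays were below theirs by less than 2-fold. A second Socs3 probe set gave 1.15 in CDC, 0.14 in NK and 0.11 in IKDC, and the third gave 0.46 in CDC, 0.00 in NK and -0.84 in IKDC.

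Among the genes of mRNA decay, growth arrest and stress response, Zfp36 (tristetraprolin), which binds AU-rich elements and hastens the decay of cytokine mRNAs and of immediate early mRNAs, stood at 12.71 and 12.80 in spleen CDC and 11.01 in lymph node CDC, 12.52 and 12.78 in spleen NK and 11.33 in lymph node NK, and 12.25 and 12.58 in spleen IKDC and 10.92 in lymph node IKDC. Ppp1r15a (GADD34), which restores translation after stress, stood at 10.35 and 10.62 in spleen CDC and 8.90 in lymph node CDC, 11.26 and 11.01 in spleen NK and 9.31 in lymph node NK, and 10.54 and 10.45 in spleen IKDC and 9.15 in lymph node IKDC. Csrnp1, a nuclear protein induced by AXIN1, stood at 9.75 and 10.09 in spleen CDC and 8.50 in lymph node CDC, 10.65 and 10.66 in spleen NK and 8.48 in lymph node NK, and 9.38 and 10.66 in spleen IKDC and 7.85 in lymph node IKDC. All 3 were lower in every lymph node array, with differences of -1.75 in CDC, -1.32 in NK and -1.49 in IKDC for Zfp36. Those of Ppp1r15a were -1.59 in CDC, -1.82 in NK and -1.35 in IKDC, and those of Csrnp1 were -1.42 in CDC, -2.17 in NK and -2.18 in IKDC. Btg2, an antiproliferative gene that promotes deadenylation, stood at 11.72 and 12.11 in spleen CDC and 10.22 in lymph node CDC, 11.37 and 12.12 in spleen NK and 10.64 in lymph node NK, and 10.49 and 11.66 in spleen IKDC and 10.47 in lymph node IKDC. Its differences were -1.69 in CDC, -1.10 in NK and -0.61 in IKDC, and the second Btg2 probe set differed by less than 2-fold in every cell type.

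Gadd45b and Myc were higher in lymph node CDC. Gadd45b, a stress protein that activates the p38 pathway, stood at 7.63 and 8.68 in spleen CDC and 10.39 in lymph node CDC, 10.64 and 10.19 in spleen NK and 7.56 in lymph node NK, and 10.87 and 9.74 in spleen IKDC and 8.01 in lymph node IKDC. The lymph node CDC array was above both spleen arrays, by 2.23 from their mean, while lymph node NK and IKDC lay below theirs by 2-fold or more, with no overlap in any cell type. A second Gadd45b probe set gave 2.14 in CDC, -2.72 in NK and -1.19 in IKDC. The third, a dimmer one with a mean level of 5.85, gave 0.09 in CDC, -1.79 in NK and -1.28 in IKDC and so did not show the higher level in lymph node CDC. Myc, a factor of growth and proliferation, stood at 7.29 and 7.58 in spleen CDC and 8.63 in lymph node CDC, 9.11 and 8.19 in spleen NK and 8.78 in lymph node NK, and 9.06 and 8.93 in spleen IKDC and 8.58 in lymph node IKDC. The difference in CDC was 1.19, the lymph node NK array lay between the spleen arrays, and lymph node IKDC was -0.42 from the spleen mean.

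Rhob, a short-lived endosomal GTPase, stood at 11.06 and 10.94 in spleen CDC and 7.78 in lymph node CDC, 11.07 and 11.64 in spleen NK and 10.29 in lymph node NK, and 10.42 and 11.14 in spleen IKDC and 9.68 in lymph node IKDC. Its differences were -3.22 in CDC, -1.06 in NK and -1.10 in IKDC. Rgs1, which shortens G protein signals from chemokine receptors, stood at 12.35 and 12.26 in spleen CDC and 9.37 in lymph node CDC, 12.13 and 11.74 in spleen NK and 11.48 in lymph node NK, and 11.83 and 10.85 in spleen IKDC and 10.20 in lymph node IKDC. Rgs2, a second regulator of this family, stood at 12.91 and 12.90 in spleen CDC and 12.31 in lymph node CDC, 12.29 and 12.09 in spleen NK and 11.69 in lymph node NK, and 12.13 and 12.37 in spleen IKDC and 11.26 in lymph node IKDC. The lymph node array was the lowest of its cell type for all 3 genes. In CDC, Rhob and Rgs1 differed by -3.22 and -2.94, and in NK Rgs1 differed by -0.45.

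The heat shock genes showed no lower lymph node level by the 2-fold rule. Hspa1a, 1 of the 2 inducible HSP70 genes, stood at 11.13 and 9.79 in spleen CDC and 10.78 in lymph node CDC, 6.50 and 5.43 in spleen NK and 6.28 in lymph node NK, and 7.22 and 9.06 in spleen IKDC and 7.53 in lymph node IKDC. Hspa1b, its near-identical neighbour, stood at 11.66 and 11.54 in spleen CDC and 11.87 in lymph node CDC, 7.92 and 8.35 in spleen NK and 9.56 in lymph node NK, and 8.85 and 10.98 in spleen IKDC and 10.61 in lymph node IKDC. In each cell type the lymph node level of Hspa1a lay between the spleen arrays, and Hspa1b in lymph node NK lay above both, 1.42 over their mean. The spleen IKDC arrays of the pair lay 1.84 and 2.13 apart. Dnajb1, the HSP40 partner that loads clients on HSP70, stood at 10.38 and 10.12 in spleen CDC and 10.33 in lymph node CDC, 10.39 and 10.68 in spleen NK and 10.93 in lymph node NK, and 10.48 and 11.66 in spleen IKDC and 10.85 in lymph node IKDC, with differences of 0.08 in CDC, 0.39 in NK and -0.22 in IKDC. By these probe sets none of the 3 genes was counted as lower in any cell type. A second Dnajb1 probe set, with a mean level of 8.44, gave -0.79 in CDC, -0.47 in NK and -0.31 in IKDC. Its lymph node array was below both spleen arrays in CDC and NK. Hspa1a in lymph node IKDC differed by 0.31 from spleen array 1 and by -1.53 from array 2.

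**Figure D2:**
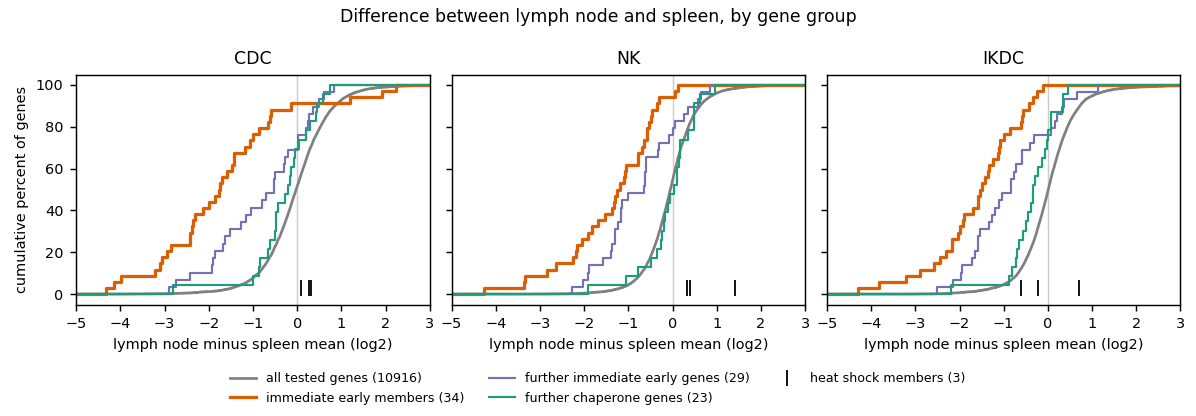
Cumulative percent of genes (vertical axis) against the lymph node minus spleen difference on the log2 scale (horizontal axis) in CDC, NK and IKDC, for all 10916 tested genes, the 34 immediate early genes described here, 29 further immediate early genes and 23 further chaperone genes, with ticks for the 3 heat shock genes. The curve of the 34 genes lies to the left of that of all genes, with medians of -1.76, -1.23 and -1.52.

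Other genes of the same pathways were counted by the same rule, from lists made with earlier results known. Of 29 further immediate early genes that passed the filter (35 measured), 12 were lower in lymph node CDC, 14 in NK and 13 in IKDC. These are 41.4%, 48.3% and 44.8% of the list, beside 7.72%, 4.2% and 4.5% of all tested genes. Their median differences were -0.52, -0.64 and -0.83. The 3 most abundant, Btg1, Zfp36l2 and Mcl1, differed by -0.71 in CDC, 0.07 in NK and 0.20 in IKDC, by -1.64 in CDC, -0.59 in NK and -0.42 in IKDC, and by 0.26 in CDC, 0.26 in NK and 0.32 in IKDC. Among them just Zfp36l2, a relative of Zfp36, was counted, in CDC. The 7 that were lower in all 3 cell types were Bhlhe40, Plk2, Plk3, Pim1, Per1, Dusp5 and Mafk, named after their values were seen. Bhlhe40, a repressor of the clock and of cytokine genes, differed by -2.41 in CDC, -1.91 in NK and -2.52 in IKDC.

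The other lists held fewer such genes. Of all tested genes, 7.72%, 4.2% and 4.5% were lower in lymph node CDC, NK and IKDC. Of 19 tested NF-κB target and regulator genes, 4, 3 and 3 were lower in lymph node CDC, NK and IKDC (21.1%, 15.8% and 15.8%). In CDC 2 were higher, beside 7.15% of all tested genes. The 3 most abundant, Icam1, Birc3 and Bcl10, differed by 0.52 in CDC, -0.48 in NK and -0.17 in IKDC, by 0.50 in CDC, 0.40 in NK and 0.41 in IKDC, and by -1.25 in CDC, -0.65 in NK and -0.45 in IKDC. Rel, Nfkbid and the early activation antigen Cd69 were the 3 that were lower in all cell types. Of 23 further heat shock and chaperone genes, 1, 2 and 1 were lower (4.35%, 8.7% and 4.35%) and none higher. The constitutive chaperones Hspa8, Hsp90aa1 and Dnaja1, the most abundant of the list, differed by -0.67 to 0.15 over the 3 cell types. Dnajb4, an HSP40 protein, was the gene counted in all 3, with -2.81 in CDC, -1.91 in NK and -2.18 in IKDC, and Hspa2 was counted in NK, with -1.04. Of 15 endoplasmic reticulum stress genes, 4, 1 and 0 were lower (26.7%, 6.67% and 0%). Among them was Hspa5 (BiP) in CDC at -1.11, while Calr and Hsp90b1 differed by -0.37 to 0.57. Of 18 upstream signalling genes, 5, 1 and 1 were lower (27.8%, 5.56% and 5.56%). Mapk14, the p38α kinase, was one of them in CDC at -1.13, and Rps6ka3 and Creb1 differed by -0.59 to 0.46. None of 16 genes of AU-rich mRNA decay was lower in any cell type, the deadenylase subunits Cnot6l, Cnot2 and Cnot6 differed by -0.40 to 0.42, and Pan3, named after its values were seen, was higher in all 3 cell types, by 2.30 in CDC, 1.98 in NK and 2.15 in IKDC.

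Other probe sets of the same genes were read as well. The 37 genes had 75 probe sets with a single symbol, 17 genes having 1 and 20 several. Of the 38 probe sets not used above, 31 had a mean at or above the filter level. Of these 31, 11 were lower in lymph node CDC, 14 in NK and 14 in IKDC, and 2, 2 and 0 were higher. In each cell type most of the 31 were thus not counted as lower. The share of all such probe sets that meet the rule is not given here, so these counts stand as description alone. Nfkbia, Nfkbiz, Egr2, Klf6, Jun, Ier5 and Socs3, whose values are given above, were among the genes whose probe sets disagreed.

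**Figure D3:**
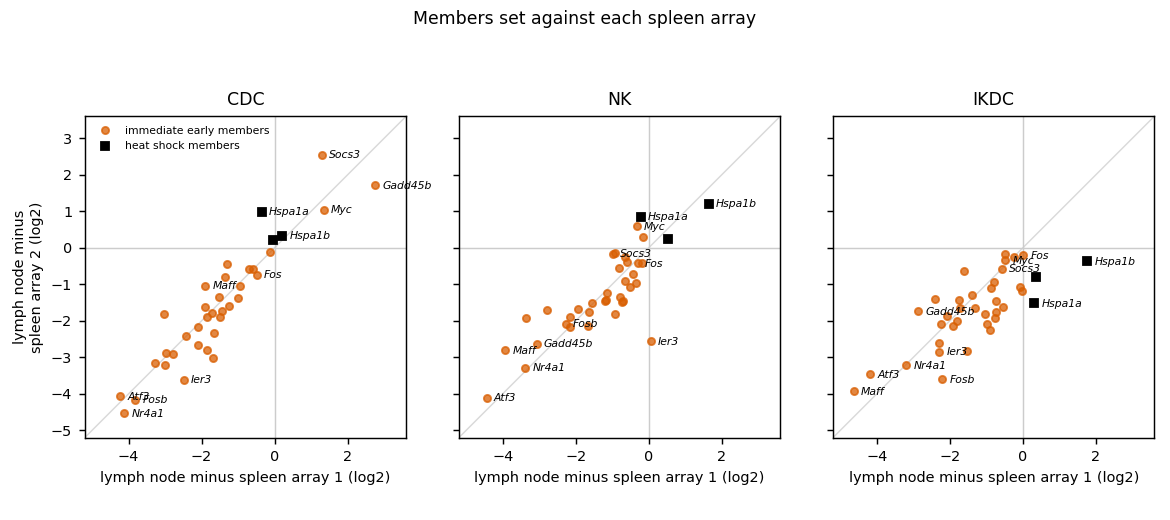
Lymph node minus spleen array 1 (horizontal axis) against lymph node minus spleen array 2 (vertical axis), both on the log2 scale, for the 37 genes in CDC, NK and IKDC; circles are the immediate early genes, squares the heat shock genes, and the diagonal marks equal differences. Most circles lie below 0 on both axes, and Gadd45b, Socs3 and Myc lie above 0 on both in CDC.

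The spleen arrays of a cell type differed among themselves, which bounds how firmly any one gene can be read. Between the 2 spleen arrays, 6 of the 37 genes were 2-fold or more apart in CDC, 5 in NK and 12 in IKDC, beside 8.22%, 8.25% and 19.6% of all tested genes. In IKDC the second array was the higher for most of these genes, the median of array 1 minus array 2 over the 37 genes being -0.23. The mean level of the 34 immediate early genes lay between 10.74 and 11.13 on the 6 spleen arrays and between 9.15 and 9.72 on the 3 lymph node arrays, and the means of all tested genes between 7.83 and 7.92 on all 9 arrays.

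Between cell types in spleen, where each has 2 arrays, a moderated test over all genes was possible (limma, Benjamini-Hochberg adjustment over 10916 genes, called at 0.05). The comparison asks where IKDC stand beside NK cells and dendritic cells. In NK against CDC, 5 of the 37 genes rose and 5 fell, or 27% of the list, beside 13.5% of all tested genes (6.54% higher and 6.97% lower). In IKDC against CDC, 5 rose and 2 fell, or 18.9%, beside 10.3% (4.75% higher and 5.6% lower). At an unadjusted p under 0.05, 17 and 16 of the 37 passed, beside 26% and 23.5% of all tested genes. These 2 comparisons share the CDC arrays, so that their likeness is not independent evidence. The list was drawn up with earlier results of these arrays known. The distance between these shares and those of all tested genes is therefore not evidence of its own.

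Socs3, Dusp2 and Tnfaip3, all inhibitors of signalling, were higher in both NK and IKDC. Socs3 was higher than in CDC by 3.88 ± 0.47 (SE, adjusted p = 0.00331) in NK and by 3.89 ± 0.47 (SE, adjusted p = 0.00425) in IKDC. Dusp2 was higher by 2.53 ± 0.22 (SE, adjusted p = 0.00109) in NK and by 1.62 ± 0.22 (SE, adjusted p = 0.00643) in IKDC. Tnfaip3 was higher by 1.50 ± 0.19 (SE, adjusted p = 0.00394) and 1.33 ± 0.19 (SE, adjusted p = 0.00748). For these 3 genes every spleen NK and IKDC array lay above both spleen CDC arrays. Gadd45b followed with 2.26 ± 0.50 (SE, adjusted p = 0.031) in NK and 2.15 ± 0.50 (SE, adjusted p = 0.0443) in IKDC. Fosl2 was called in NK, at 2.34 ± 0.50 (SE, adjusted p = 0.0282), and Myc in IKDC, at 1.56 ± 0.36 (SE, adjusted p = 0.0428). The other comparison gave 1.98 ± 0.50 (SE, adjusted p = 0.0586) for Fosl2 and 1.21 ± 0.36 (SE, adjusted p = 0.0795) for Myc, of the same sign and past the threshold of 0.05 in neither.

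Atf3, the EGR genes and HSP70 were the lower ones. Atf3 differed by -2.62 ± 0.32 (SE, adjusted p = 0.00367) in NK minus CDC and by -3.57 ± 0.32 (SE, adjusted p = 0.00185) in IKDC minus CDC, with all 4 NK and IKDC arrays below both CDC arrays. Egr2 and Egr3 fell in NK, with differences of -2.10 ± 0.45 (SE, adjusted p = 0.0269) and -1.20 ± 0.28 (SE, adjusted p = 0.0365), and Egr1 fell in IKDC, with -1.16 ± 0.26 (SE, adjusted p = 0.0376). Hspa1a and Hspa1b fell in NK, with differences of -4.50 ± 0.74 (SE, adjusted p = 0.0104) and -3.47 ± 0.64 (SE, adjusted p = 0.0156). In IKDC their differences were -2.32 ± 0.74 (SE, adjusted p = 0.113) and -1.69 ± 0.64 (SE, adjusted p = 0.173), with spleen IKDC array 2 nearer to CDC and array 1 nearer to NK. Since the 2 genes can share probes, this may be a single measurement.

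Of the called genes, 6 of 10 in NK against CDC and 5 of 7 in IKDC against CDC missed the threshold when some array was left out. Left out in turn, the 6 spleen arrays gave 4 to 13 called genes in NK against CDC and 2 to 8 in IKDC against CDC. In NK against CDC the count was 5 without CDC array 1, CDC array 2 or NK array 1 and 4 without NK array 2, and in IKDC against CDC it was 4 without CDC array 1 and 2 without CDC array 2. Called in each of the 6 fits were Atf3, Dusp2, Tnfaip3 and Socs3 in NK against CDC, and Atf3 and Socs3 in IKDC against CDC. Among 12 other settings, Tnfaip3 and Gadd45b missed the threshold in IKDC against CDC under 4 and Egr1 and Myc under 3, and in NK against CDC Egr3 did so under 3 and Tnfaip3 and Hspa1b under 1. The count in IKDC against CDC was 4 without the filter on low values and 4 without the trend in the spread. The share of all tested genes called in each of these fits is not given here. The dendritic cell markers on spleen NK array 1, given above, touch the NK values, and their part was not tested.

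**Figure D4:**
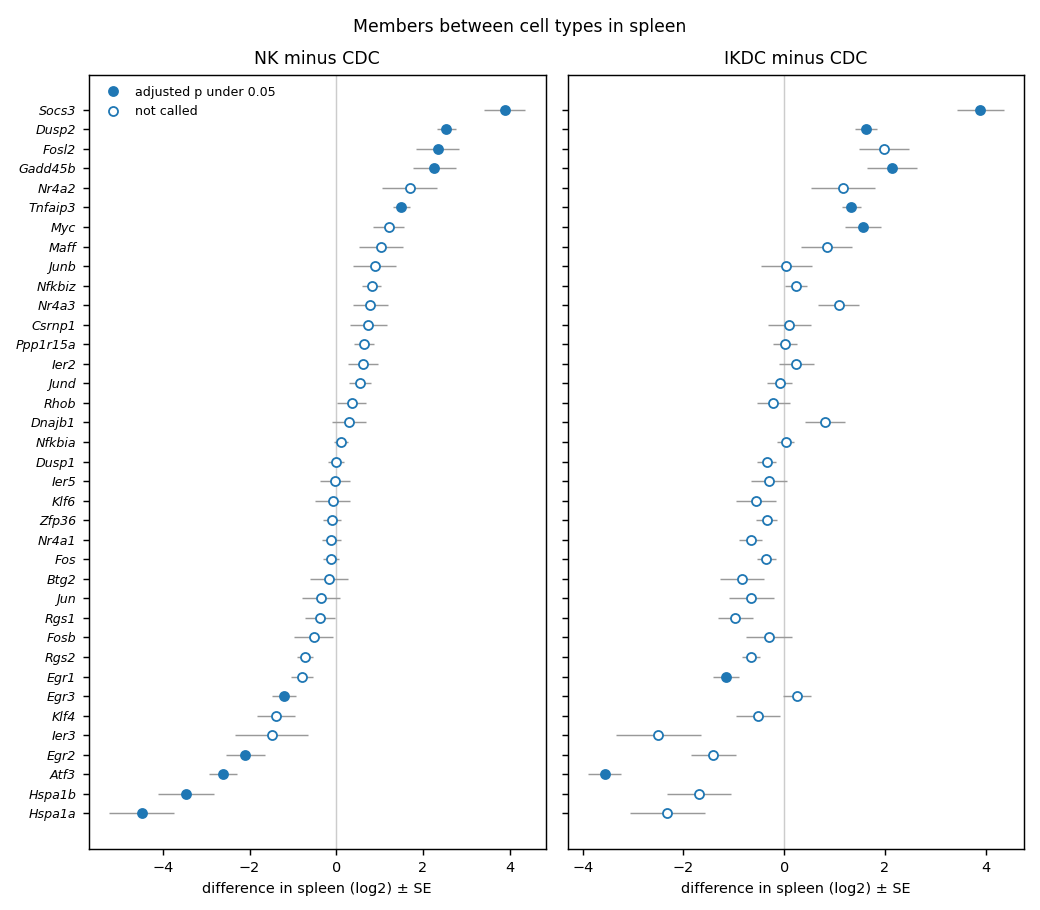
Difference between cell types in spleen on the log2 scale, with its standard error, for the 37 genes ordered by NK minus CDC; NK minus CDC is on the left and IKDC minus CDC on the right, each from 2 arrays per cell type, and filled points have an adjusted p under 0.05. Filled points number 10 on the left and 7 on the right, with Socs3 at the high end and Atf3 among the lowest of both.

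No gene was called between IKDC and NK in spleen. The count was 0 of the 37 and 0 of 10916 in limma, beside 8 of the 37 and 5.48% of all tested genes at an unadjusted p under 0.05, and the smallest adjusted p among the 37 was 0.857. The widest differences were in the HSP70 genes, with IKDC minus NK at 2.17 ± 0.74 (SE) for Hspa1a and 1.78 ± 0.64 for Hspa1b. With 2 arrays per group these intervals are wide, and a missed threshold does not show that the populations have the same levels.

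In lymph node each cell type has 1 array, so that its values can only be set beside those of spleen. Socs3 was still lowest in CDC, but by a smaller margin, NK minus CDC being 1.39 and IKDC minus CDC 1.40. Dusp2 was lower in CDC than in NK and IKDC by 2.67 and 2.19. Gadd45b had the opposite order to spleen, with NK minus CDC at -2.82 and IKDC minus CDC at -2.38. Atf3 and HSP70 kept the order of spleen, Atf3 being -2.74 and Hspa1a -4.49 in NK minus CDC. Rgs1 differed by -0.37 in spleen NK minus CDC and by 2.11 in lymph node NK minus CDC.

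The further immediate early genes were tested in spleen in the same way. Of the 29 tested, 8 rose and 2 fell in NK against CDC, and 7 rose and none fell in IKDC against CDC (34.5% and 24.1%, beside the same background). Dusp5, an ERK phosphatase, was higher by 2.28 ± 0.23 (SE, adjusted p = 0.00171) in NK and 1.46 ± 0.23 (SE, adjusted p = 0.0114) in IKDC. Klf10, a factor induced by TGF-β, was higher by 2.89 ± 0.29 (SE, adjusted p = 0.00168) and 1.93 ± 0.29 (SE, adjusted p = 0.00938), and Phlda1 by 4.59 ± 0.51 (SE, adjusted p = 0.00231) and 3.50 ± 0.51 (SE, adjusted p = 0.00803). Of the 19 NF-κB genes, 2 rose and 2 fell in each comparison (21.1%). Of all tested genes, 13.5% were called in NK against CDC and 10.3% in IKDC against CDC. Cd69 rose by 3.63 ± 0.51 (SE, adjusted p = 0.00568) in NK, and Cd83, a marker of mature dendritic cells, fell, with -4.52 ± 0.53 (SE, adjusted p = 0.00291). Of the 23 chaperone genes 3 rose in NK and 2 in IKDC (13% and 8.7%, near those shares of all tested genes). Dnajb4 was at 2.27 ± 0.41 (SE, adjusted p = 0.0143 in limma) in NK, the opposite sign to Hspa1a. Of 15 endoplasmic reticulum stress genes 1 rose and 3 fell in NK and 1 fell in IKDC (26.7% and 6.67%). Of 18 upstream signalling genes 1 rose and 2 fell in NK and 2 fell in IKDC (16.7% and 11.1%). Among 16 mRNA decay genes none was called. In each comparison 2 of them had an unadjusted p under 0.05 in limma, beside 26% and 23.5% of all tested genes.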

How the data were processed

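The deposited values are linear intensities of 45101 probe sets on 9 arrays. Per the labels' protocols, extraction used TRIzol and RNeasy, and 6 µg of total RNA went into each biotinylated cRNA. The software that scaled them is not given in the sources read, and each array has a trimmed mean intensity of 150.001, so the authors scaled the arrays to a common mean.

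Control probe sets (64) were dropped. An offset of 6.49 (the 20th percentile of all values) was added, and log2 values were quantile normalized in limma 3.58.1 (R 4.3.3). A probe set was named where the platform annotation gave a single symbol (34945; 932 had several and 9160 none), with 34741 matched to RefSeq through the gene identifier. The probe set with the highest mean stood for its gene, and genes in the lowest 40 percent of means (log2 level under 5.31) were left out of the tests, leaving 10916 genes. A linear model over 6 groups with eBayes (trend; residual df 3, prior df 3.44) gave two-sided moderated tests between spleen groups, adjusted over all tested genes (Benjamini-Hochberg, 0.05). The script was also tested on simulated data. Lymph node groups have 1 array each and were described without a test. The precision is limited by the number of arrays.

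The genes and the lists were chosen with earlier results of these data known. Per-array values are given for genes 2-fold apart between organs, genes called in spleen, and the most abundant of each role. From each further list the 3 most abundant genes and up to 3 called genes were eligible to be named, and the few named outside that rule are marked as chosen after their values were seen. Alternatives covered normalization, offset, probe set, filter, the spread model, left-out arrays and the fold.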

Additional observations from a re-analysis of the deposited data

Results flagged for a closer look

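Gadd45b, Socs3 and Myc differed between lymph node and spleen in opposite directions in different cell types, judged from whether the lymph node array lay above or below both spleen arrays. The difference between cell types was not tested. Gadd45b was at 2.23 in CDC (lymph node minus spleen, log2) and at -2.85 in NK and -2.30 in IKDC, while another, dimmer probe set of Gadd45b gave 0.09 in CDC. Socs3 was at 1.92 in CDC and at -0.58 in both NK and IKDC. Myc was at 1.19 in CDC and at -0.42 in IKDC, with the lymph node NK array between the spleen arrays. Macrophage or monocyte markers were also higher in lymph node CDC (summed intensity 13968 and 13581 in spleen, 28032 in lymph node), and their part in these values was not tested.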

How the results depend on the processing

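No difference of a listed gene changed sign once it was counted or called, under any alternative run. In IKDC against CDC, 7 of the 37 genes were called, 4 without the filter on low values and 4 with eBayes without a trend. The fit on spleen arrays alone with the replicate number as a block called 15, and 2 to 8 were called when 1 spleen array was left out. In NK against CDC, 10 were called, 17 with the replicate block and 4 to 13 with 1 array left out. The block kept every one of the 7 and 10 calls and added Fosl2 in IKDC (adjusted p = 0.0334) and Myc in NK (0.0401), among others. The shares of all tested genes called in these other fits are not given here. Their counts over the 37 genes therefore stand as description alone. In IKDC against NK the count was 0 in every setting. The labels do not say what the numbers mark, though by Xist and Eif2s3y the arrays numbered 1 and 2 differ in sex. Deviations of same-numbered arrays correlated at 0.41 (CDC and NK), 0.53 (CDC and IKDC) and 0.49 (NK and IKDC) over 10916 genes, which are not independent replicates, and with 2 numbers the arrays were not treated as pairs. With 4-fold in place of 2-fold, 15 genes were counted in lymph node CDC, 9 in NK and 10 in IKDC, as against 28, 21 and 25. The share of all tested genes at 4-fold is not given here, so these counts stand as description alone. No paired analysis was possible because the lymph node arrays carry no number. Left-out arrays leave a lone array that is assumed to vary like the other groups. Under the other normalizations, offsets and probe set rules, the counts over the 37 genes stayed within 1.5 times those given here. Of the counts over the further lists, at most 3 moved by more under any one of these settings.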

Other observations

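Beyond the genes and lists above, 40 other genes were counted as lower in lymph node in every cell type (2-fold or more from the spleen mean and below both spleen arrays), out of 66 in all, 15 of them listed genes and 11 from the further lists. The following were named after their values were seen. Ccrl2, an atypical chemokine receptor that binds chemerin, differed by -2.63 in CDC, -2.90 in NK and -2.89 in IKDC. Irs2, an adaptor of the insulin receptor, differed by -2.96, -2.94 and -2.22. Ccl3 (MIP-1α), an inflammatory chemokine, differed by -3.74, -1.61 and -2.26. Gem, a small GTPase that inhibits calcium channels, differed by -1.82, -1.90 and -2.01, and the kinase Pim3 by -2.33, -1.59 and -2.07. The 40 were not all of this kind. They included cell cycle genes, such as Top2a with -1.15, -1.31 and -2.21 and Bub1 with -1.36, -1.82 and -3.15. The Y-linked Eif2s3y was also among the 40, with its signal on the spleen arrays numbered 1 and levels of 4.28 or less on the arrays numbered 2 and the lymph node arrays.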
